A study of Passer montanus with 72 samples.

Results

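Collagens, laminins, nidogens and fibrillins build the extracellular matrix, and integrins are the receptors by which cells hold on to it. Their genes were picked by symbol from the count table of a study of the Eurasian tree sparrow (Passer montanus), which lists 21957 genes. The genome and annotation of that table are not given, and 0 of its gene identifiers were found in the reference gene table of the species. Of its rows, 76 carried a matching symbol, and 3 of these (FBN2, ITGA1 and ITGA2), on the Z sex chromosome, were left out. The 73 remaining genes were 38 collagens, 12 laminins, 17 integrins, 2 nidogens, 2 fibrillins, and 2 integrin-binding proteins (ITGB1BP1 and ITGB1BP2) that share the symbol but belong to none of these families. After a filter on low counts, 51 of the 73 were tested in the comparisons of regions. They were 28 collagens, 8 laminins, 11 integrins, both nidogens, FBN1 and ITGB1BP1.

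The study sequenced RNA from the brains of 24 tree sparrows taken from the wild and held in captivity. Each bird gave 1 library of striatum, 1 of caudal hippocampus and 1 of rostral hippocampus, 72 in all, and the labels give 13 males and 11 females. No treatment, genotype or age is given in the labels, and the behaviour in the study's title is not given per bird. The design allows 3 comparisons of these genes: how striatum, a basal forebrain region, differs from hippocampus, how the caudal part of the hippocampus differs from the rostral part, and how males differ from females within each region.

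Collagens are trimers of chains wound around each other. Fibrillar collagens (types I, II, III, V, XI, XXIV and XXVII) form fibrils, while type IV collagen forms the sheet-like network of basement membranes together with laminins, which are trimers of an alpha, a beta and a gamma chain, and with nidogens, which tie the sheets together. Integrins pair an alpha with a beta chain in the cell membrane and bind these proteins from outside. In brain, basement membranes line blood vessels and the outer surface, and fibrillar collagens are best known from the meninges and vessel walls.

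Libraries held between 2629433 and 5323201 counts (median 4071234). Striatal labels were checked against marker genes: all 10 tested markers of striatal medium spiny neurons were higher in striatum and all 9 tested markers of pallial glutamatergic neurons were lower. The striatum library of bird 6 stood apart, with 1258 CPM (counts per 1000000 counts of the library) summed over the pallial markers, against 172 to 308 CPM in the other striatum libraries and 2714 to 3952 CPM in hippocampus. The striatum library of bird 11 had counts in 7718 genes, against 10087 to 11547 in all other libraries. Bird 260 is labelled female, but its 3 libraries had 23.3 to 28.4 CPM from the female-specific W sequence and a CHD1W count of 0. The other libraries labelled female had 1877 to 2375 CPM and CHD1W counts of 101 to 216, and those labelled male had 9.19 to 47.6 CPM and counts of 0 to 3. The counts of bird 260 therefore go against its label. Genes called by sex with all birds are also given without it, and other results by sex keep it as labelled unless stated.

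The 22 genes not tested were all scarce, each with a mean below 1 CPM. COL28A1 and ITGA10 had no count in any library. The most abundant of the 22 had 160 counts over all libraries, and the least abundant of the 51 tested had 136. COL6A1, an obligate chain of type VI collagen in mammals, and COL18A1, a basement membrane collagen, were among those not tested, with 37 and 17 counts.

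Levels of different genes can be compared only per length of the transcript, as CPM per kilobase. On that scale the leading gene in striatum was COL5A2, which encodes a chain of type V collagen, at a mean of 48.8 CPM per kilobase. ITGB1, the beta chain shared by many integrins, followed with 13.8 CPM per kilobase. In caudal hippocampus FBN1, the microfibril protein fibrillin-1, led with 13.7 CPM per kilobase and ITGB1 followed with 12.0. In rostral hippocampus ITGB1 led with 12.75 CPM per kilobase, and FBN1 reached 7.49. COL27A1, COL1A2, COL14A1 and ITGB5 were among the 10 leading genes in every region. Summed over all 73 genes, the level was 649 to 1264 CPM (median 1082) in striatum, 640 to 1313 CPM (median 949) in caudal hippocampus and 626 to 1104 CPM (median 780.0) in rostral hippocampus. Without COL5A2, the summed medians were 763.5 CPM in striatum, 931 CPM in caudal hippocampus and 762 CPM in rostral hippocampus.

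Striatum had 1 fibrillar collagen gene at a very high level and lower levels of many, but not all, of the other tested genes than hippocampus. Of the 51 tested, 9 were higher and 27 were lower in striatum than in the mean of the 2 hippocampal parts (edgeR quasi-likelihood test with bird as a block, Benjamini-Hochberg adjusted p under 0.05 over 10445 genes). That is 70.6% of them, against 62.6% of all genes tested, of which 3083 (29.5%) were higher and 3454 (33.1%) lower. The share called was near the background. The median log2 fold was -0.54 over the 51 genes and -0.04 over all genes. Changes of at least 1 on the log2 scale were found for 22 of the 51, 2 higher and 20 lower, which is 43.1%, against 16.4% of all genes. In bulk tissue, fewer cells of a type and less RNA per cell cannot be told apart. Adjusted p-values of genes come from edgeR throughout. A log2 fold is followed by a standard error worked back from the fold and the F statistic of its test. For genes with few counts in a region this error is too small to be read as the precision of the fold.

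Among fibrillar collagens, 3 of 8 were higher and 3 were lower in striatum. COL5A2 ranged from 155 to 473 CPM in striatum (median 318). It ranged from 9.29 to 25.6 CPM in caudal hippocampus (median 15.35) and from 6.52 to 52.45 CPM in rostral hippocampus (median 16.2). The lowest striatum library thus lay far above the highest hippocampal library. Averaged over the 24 birds, the level was 314 ± 92.3 CPM in striatum and 17.3 ± 5.75 CPM in hippocampus (SD), a log2 fold of 4.20 ± 0.11 or 18.35-fold (adjusted p = 6.67e-39). COL5A2 was higher in striatum in 24 of 24 birds, and it ranked 35 from the highest fold among the 10445 genes. For scale, DRD2, the dopamine receptor gene of striatal neurons, had a log2 fold of 6.39 ± 0.17.

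The partner chain of COL5A2 moved the other way. COL5A1, which supplies the other chains of the common type V trimer, ranged from 0 to 6.91 CPM in striatum (median 1.26), against 2.00 to 15.8 CPM in caudal hippocampus (median 7.66) and 0.710 to 22.0 CPM in rostral hippocampus (median 5.50). The ranges overlapped, but 21 of 24 birds had less in striatum, with a log2 fold of -2.25 ± 0.34 (adjusted p = 5.85e-08). COL2A1, the collagen of cartilage, had no count in 18 of 24 striatum libraries and reached at most 0.981 CPM there. Its log2 fold was -3.00 ± 0.47 (adjusted p = 1.43e-07). COL11A1 was higher in striatum, by 0.49 ± 0.14 (adjusted p = 0.00275), and so was COL27A1, by 0.40 ± 0.12 (adjusted p = 0.00412). The medians of COL27A1 were 67.4 CPM in striatum, 63.0 CPM in caudal and 40.6 CPM in rostral hippocampus, so striatum stood close to the caudal part. COL1A2, a chain of the type I collagen of most connective tissues, was not called: it averaged 34.0 ± 22.4 CPM in striatum and 38.75 ± 11.3 CPM in hippocampus. COL3A1, its companion in vessel walls, averaged 1.32 ± 1.02 CPM in striatum and 1.74 ± 0.972 CPM in hippocampus and was not called either. COL3A1 lies next to COL5A2 in the table's genome, with the ends of the 2 genes facing each other 9352 bases apart. Whether the counting used strand is not given in the sources used here.

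**Figure D1:**
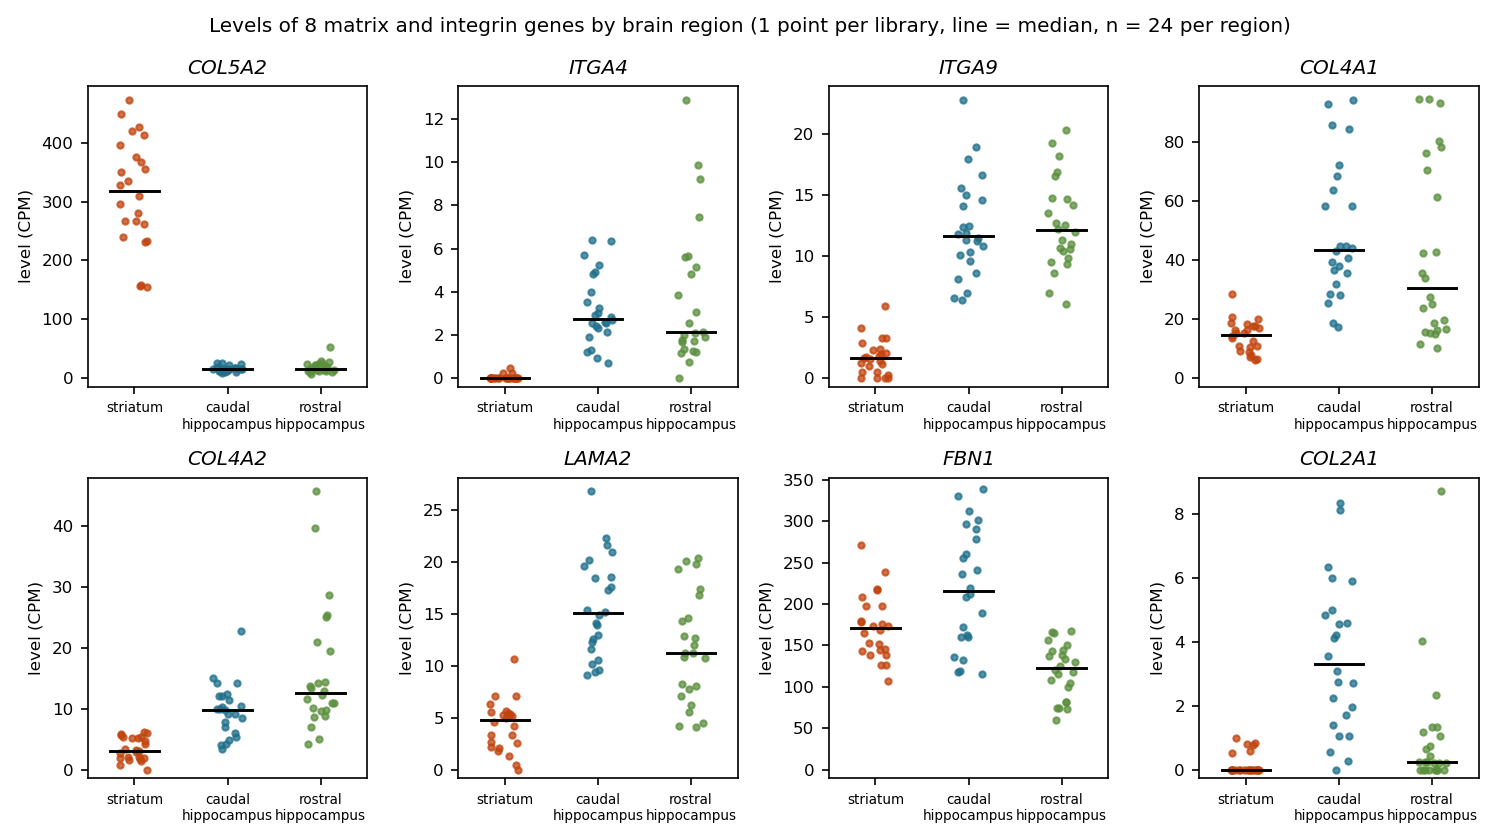
Level of 8 genes in CPM (vertical axes starting at 0) in striatum, caudal hippocampus and rostral hippocampus; each point is 1 library and each black line the median of 24. COL5A2 stands above 154 CPM in every striatum library and ITGA4 at or near 0, while FBN1 and COL2A1 are higher in caudal than in rostral hippocampus.

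Several genes of the basement membrane were lower in striatum. Of the 7 network collagens tested, 5 were lower and 0 were higher. COL4A1 and COL4A2 encode the chains of the type IV collagen found in nearly all basement membranes. COL4A1 ranged from 6.25 to 28.5 CPM in striatum (median 14.7), from 17.3 to 94.2 CPM in caudal hippocampus (median 43.55) and from 10.3 to 94.6 CPM in rostral hippocampus (median 30.7). The ranges overlapped, and the striatum median lay above the lowest rostral library. In each of the 24 birds striatum had less than the mean of the hippocampal parts, with a log2 fold of -1.62 ± 0.21 (adjusted p = 1.31e-09). COL4A2 fell by 1.81 ± 0.21 on the log2 scale (adjusted p = 1.05e-10), also in 24 of 24 birds. COL8A2, a network collagen of vessels and cornea, averaged 7.63 ± 4.81 CPM in striatum and 18.8 ± 7.05 CPM in hippocampus, a log2 fold of -1.34 ± 0.16 (adjusted p = 1.19e-10). COL4A6 was lower by a log2 fold of -0.97 ± 0.21, with medians of 4.13 CPM in striatum, 8.58 CPM in caudal and 4.32 CPM in rostral hippocampus. COL4A5 was lower by -0.40 ± 0.17 (adjusted p = 0.0364), a call that was lost without bird 6 and without bird 11. Its medians were 13.5 CPM in striatum, 21.5 CPM in caudal and 12.4 CPM in rostral hippocampus. For COL4A6 and COL4A5, striatum thus stood close to the rostral part.

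Among laminin chains, 5 of 8 were lower and 1 was higher in striatum. LAMA2, the alpha chain of muscle, vessel and brain surface basement membranes, ranged from 0 to 10.6 CPM in striatum (median 4.79), against 9.06 to 26.8 CPM in caudal hippocampus (median 15.05) and 4.06 to 20.3 CPM in rostral hippocampus (median 11.2). The striatum range overlapped the lower part of both hippocampal ranges, and all 24 birds had less in striatum (log2 fold -1.69 ± 0.19, adjusted p = 3.09e-11). LAMA5 was lower by a log2 fold of -1.36 ± 0.21 and LAMC3 by -1.54 ± 0.40, and both calls held under every alternative tried. LAMA4, an alpha chain of endothelial basement membrane, was lower by -0.65 ± 0.15. The 2 beta chains parted: LAMB2 was lower by -1.19 ± 0.18 (adjusted p = 5.33e-08) while LAMB1 was higher by 0.66 ± 0.18 (adjusted p = 0.00134). LAMC1, the gamma chain of most laminins, averaged 20.15 ± 5.24 CPM in striatum and 22.3 ± 4.74 CPM in hippocampus and was not called. Of the nidogens, NID2 was lower by a log2 fold of -1.96 ± 0.50 (adjusted p = 0.000557), on 15 counts over 24 striatum libraries. NID1 averaged 6.58 ± 3.41 CPM in striatum and 7.60 ± 3.03 CPM in hippocampus and was not called. FBN1 was not called either, at 172 ± 38.9 CPM in striatum and 169 ± 42.1 CPM in hippocampus.

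Type VI collagen, which forms beaded filaments at the edge of basement membranes, was low in striatum. COL6A3 ranged from 0 to 4.23 CPM in striatum (median 1.395), against 1.64 to 32.7 CPM in caudal hippocampus (median 11.3) and 1.56 to 35.2 CPM in rostral hippocampus (median 9.78). The upper part of the striatum range overlapped the lower part of both hippocampal ranges, and 24 of 24 birds had less in striatum (log2 fold -3.05 ± 0.30, adjusted p = 2.23e-13). COL6A2 had no count in 15 of 24 striatum libraries and a log2 fold of -3.46 ± 0.45 (adjusted p = 1.49e-09). Of the 4 genes in this group, COL7A1, the anchoring fibril collagen, was also lower (-1.16 ± 0.23), while COL26A1 was not called (0.07 ± 0.29). Among the 6 collagens that attach to fibrils, COL9A1 was higher by a log2 fold of 1.31 ± 0.38 (adjusted p = 0.00252). COL9A1 rested on a few libraries, with a median of 1.72 CPM and a highest value of 13.1 CPM in striatum, and 14 of 24 birds in the direction of the fold. COL14A1 was higher by 0.24 ± 0.10 (adjusted p = 0.0294), a call that was lost under 2 of 8 alternatives, DESeq2 size factors and the DESeq2 Wald test. COL22A1 was lower by -0.63 ± 0.23 (adjusted p = 0.0148), with medians of 3.09 CPM in striatum, 5.80 CPM in caudal and 3.33 CPM in rostral hippocampus. Of the 3 transmembrane collagens tested, COL25A1, a neuronal collagen, was lower by -0.66 ± 0.16. Its medians were 10.0 CPM in striatum, 12.8 CPM in caudal and 22.4 CPM in rostral hippocampus.

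Among the receptors, ITGA4 and ITGA9 were far lower in striatum. ITGA4, the alpha4 integrin chain known from leukocytes, had 4 counts over the 24 striatum libraries, 21 of which had none. It ranged from 0.693 to 6.39 CPM in caudal hippocampus (median 2.76) and from 0 to 12.9 CPM in rostral hippocampus (median 2.12). Striatum thus lay at or near 0 while all but 1 of the hippocampal libraries had counts, and in 24 of 24 birds hippocampus had more. The fitted log2 fold was -5.55 ± 0.43 (adjusted p = 4.81e-17), rank 13 from the lowest of 10445 genes. A fold against so few counts depends on the prior count of the fit, and so does its standard error. ITGA9, the alpha chain closest to ITGA4 in sequence and a receptor for tenascin and other matrix proteins, ranged from 0 to 5.87 CPM in striatum (median 1.63). It ranged from 6.39 to 22.8 CPM in caudal hippocampus (median 11.6) and from 6.09 to 20.3 CPM in rostral hippocampus (median 12.1). The highest striatum library lay below the lowest hippocampal library, and the log2 fold was -2.94 ± 0.21 (adjusted p = 1.47e-18).

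Other integrin alpha chains changed less. ITGAV, which binds proteins with an RGD motif, was higher in striatum, at 32.7 ± 14.3 CPM against 19.2 ± 4.91 CPM in hippocampus (log2 fold 0.73 ± 0.11, adjusted p = 9.07e-08, 20 of 24 birds). ITGA8, another RGD-binding chain, was lower by -1.22 ± 0.36 (adjusted p = 0.00292). ITGA6, a laminin-binding chain, was lower by -0.43 ± 0.14 (adjusted p = 0.00627) than the mean of the hippocampal parts. Its medians were 15.7 CPM in striatum, 16.3 CPM in caudal and 26.9 CPM in rostral hippocampus, so striatum stood close to the caudal part. Of the 5 beta chains tested, ITGB5 was lower by -0.48 ± 0.10, ITGB4 by -1.27 ± 0.43 and ITGB3, at 0.4945 ± 0.7554 CPM in striatum against 1.129 ± 0.7395 CPM in hippocampus, with an adjusted p of 0.00183. ITGB8, the partner of ITGAV in brain, averaged 55.55 ± 9.66 CPM in striatum and 52.9 ± 12.4 CPM in hippocampus and was not called. ITGB1 averaged 54.6 ± 10.7 CPM in striatum and 48.9 ± 7.18 CPM in hippocampus. Its log2 fold of 0.16 ± 0.07 passed the threshold (adjusted p = 0.038) but not under 4 of 8 alternatives.

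**Figure D2:**
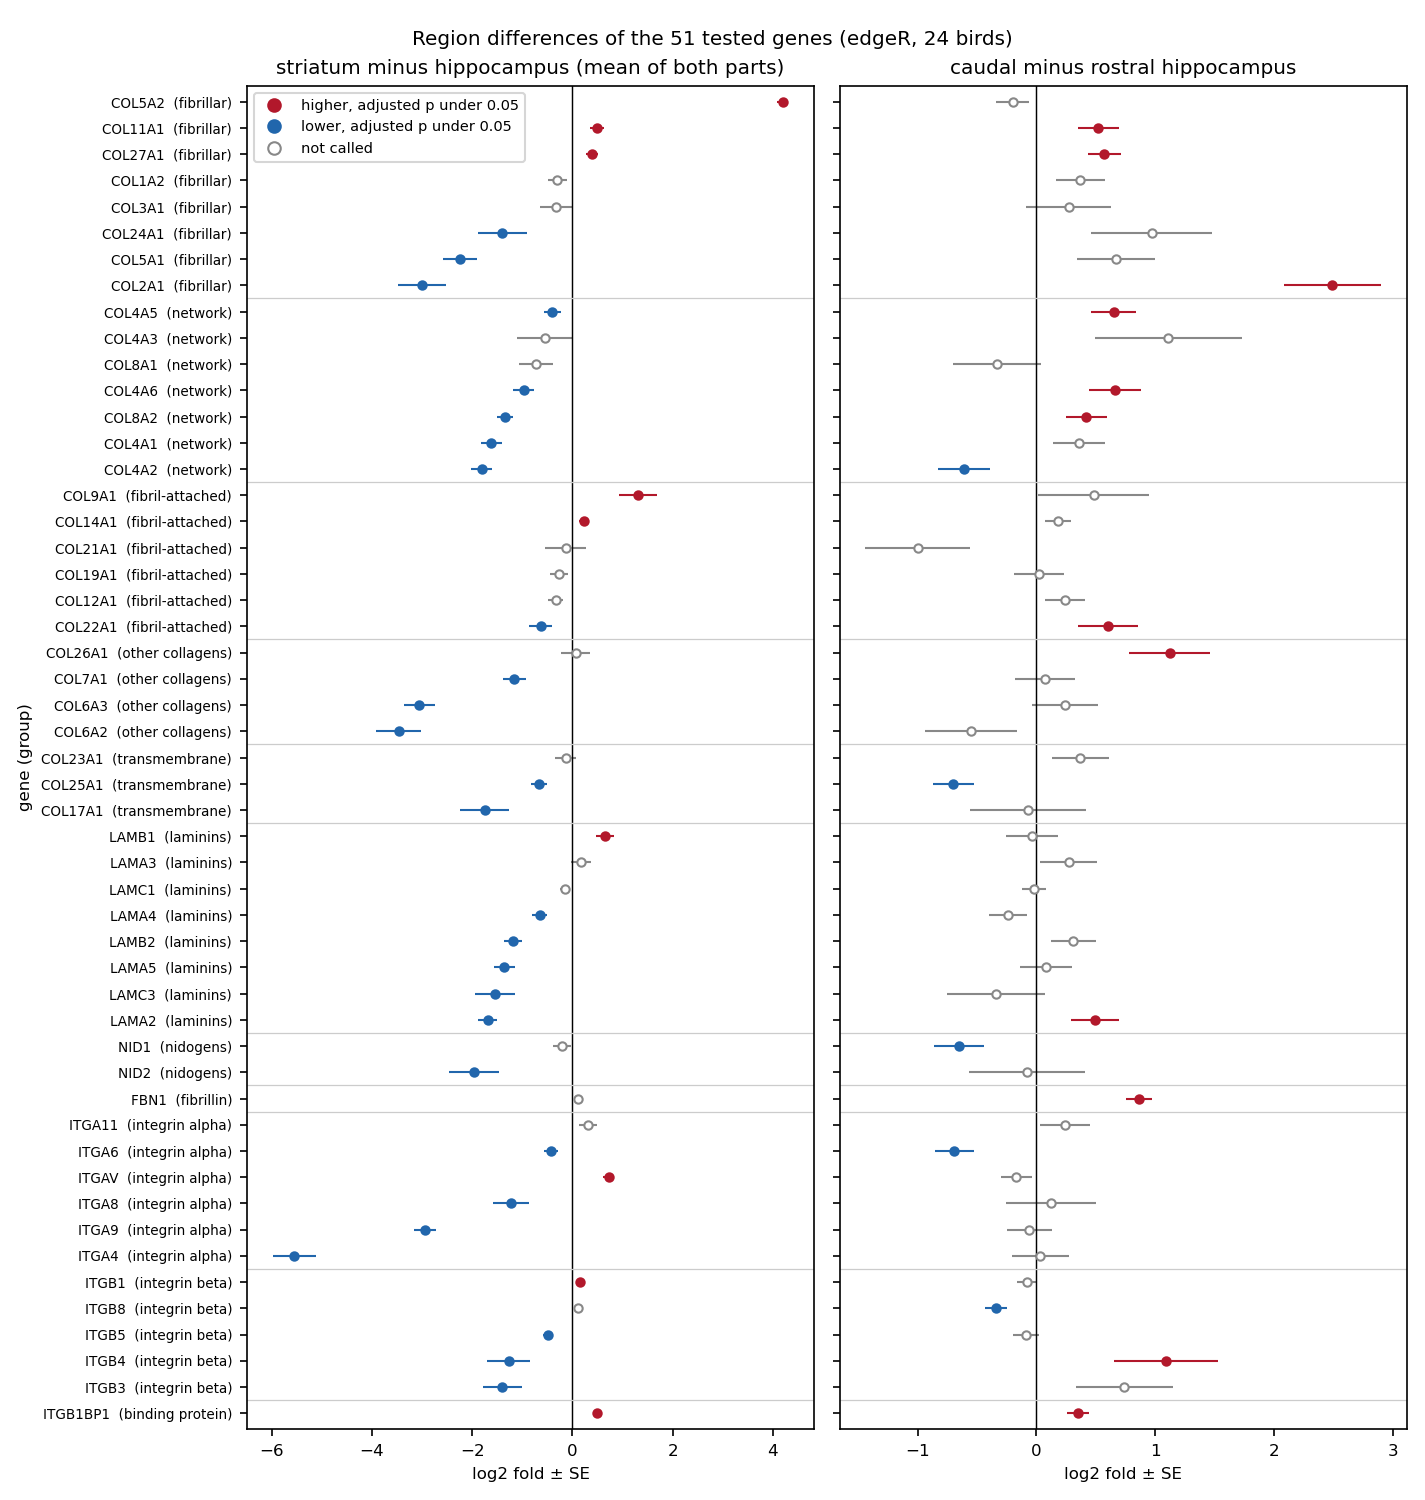
Log2 fold and standard error of each of the 51 tested genes, ordered by gene group, for striatum minus hippocampus (left) and caudal minus rostral hippocampus (right), with filled red points for genes called higher, filled blue points for genes called lower and open grey points for genes not called at an adjusted p of 0.05 (edgeR, 24 birds). The left panel spans -5.55 for ITGA4 to 4.20 for COL5A2, with 27 blue and 9 red points, and the right panel has 12 red and 5 blue points. Standard errors are worked back from the fold and its F statistic and are too small for genes with few counts, such as ITGA4.

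Pairs of genes were compared within each library as the log2 ratio of their levels in CPM, with 0.5 CPM added to each. Gene length is not in these ratios, so only their differences between regions are read, not their size. Most pairs were chains that are partners in 1 protein or that can replace each other. The 12 pairs were chosen after the levels had been seen, and each was tested in both region comparisons over 24 birds by a two-sided paired permutation test with 100000 resamples, adjusted over the 24 tests. The smallest p these can give is 2e-05, or 6e-05 once adjusted. The ratio of COL5A2 to COL5A1 was 7.61 in striatum, against 0.99 in caudal and 1.84 in rostral hippocampus. It was higher in striatum than in hippocampus by 6.20 ± 1.53 (SD) and in 24 of 24 birds (adjusted p = 6e-05). COL5A2 also rose in striatum against COL1A2 (by 4.61 ± 1.32) and against COL3A1 (by 4.35 ± 1.06), each in 24 of 24 birds. COL1A2 and COL3A1 are chains of other collagens and were not called here, so these ratios follow the rise of COL5A2 itself. The ratio of LAMB1 to LAMB2 was 0.33 in striatum, against -1.60 in caudal and -1.30 in rostral hippocampus (difference 1.79 ± 1.19, 22 of 24 birds, adjusted p = 6e-05). ITGA9 fell against its partner ITGB1 by 2.98 ± 1.02 in striatum (24 of 24 birds, adjusted p = 6e-05), and ITGA4 was lower against ITGB1 in 24 of 24 birds. The size of the ITGA4 difference is set by the 0.5 CPM added, since 21 of 24 striatum libraries had no ITGA4 count, and is not given. ITGAV rose against ITGB8 by 0.56 ± 0.68 (18 of 24 birds, adjusted p = 0.000997).

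**Figure D3:**
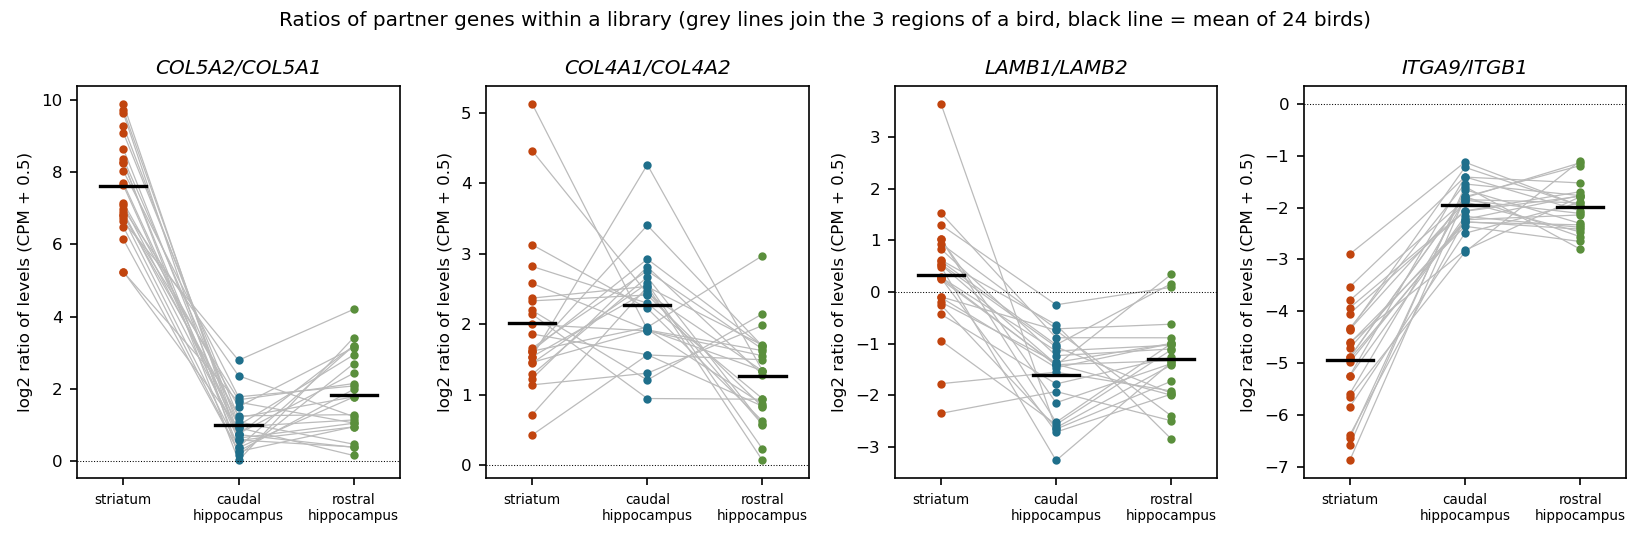
Log2 ratio of the levels of 4 gene pairs within each library (0.5 CPM added to each level) in striatum, caudal hippocampus and rostral hippocampus; grey lines join the 3 libraries of a bird and black lines are means of 24 birds. COL5A2 over COL5A1 has a mean of 7.61 in striatum, and COL4A1 over COL4A2 a mean of 2.27 in caudal against 1.26 in rostral hippocampus. Gene length is not in the ratios, so they are compared between regions only.

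Other genes of matrix assembly and adhesion were called in both directions. Of 37 tested genes for other matrix proteins, 5 were higher and 18 were lower. FMOD, a proteoglycan that binds collagen fibrils, averaged 0.450 ± 0.502 CPM in striatum and 12.5 ± 4.16 CPM in hippocampus (log2 fold -4.72 ± 0.29, adjusted p = 4.68e-21). POSTN, a matrix protein that binds integrins, had a log2 fold of -5.76 ± 0.42. It had 1 count over the 24 striatum libraries (mean 0.0117 CPM), too few for a precise fold. RELN, a matrix glycoprotein that guides neurons, was higher by 0.86 ± 0.06. Of 26 tested genes for collagen processing, 5 were higher and 13 were lower. ADAMTS2, a protease that trims fibrillar procollagens, was lower by -3.11 ± 0.31 (adjusted p = 6.79e-13), and P4HA3, a prolyl hydroxylase chain, by -3.48 ± 0.51. PLOD2, a lysyl hydroxylase of collagen, was higher by 0.78 ± 0.07 (adjusted p = 2.15e-14) and PCOLCE2, an enhancer of procollagen trimming, by 1.06 ± 0.20. PCOLCE2 had medians of 4.31 CPM in striatum, 3.69 CPM in caudal and 1.91 CPM in rostral hippocampus. Of 17 tested matrix proteases and inhibitors, 2 were higher and 10 were lower: ADAMTS5, a protease of proteoglycans, rose by 2.32 ± 0.15, and TIMP2, a protease inhibitor, fell by 1.44 ± 0.08. Of 36 tested adhesion receptors and adaptors, 9 were higher and 17 were lower. CD47, an integrin-associated protein, rose by 1.36 ± 0.05 and SGCD, a sarcoglycan, by 1.98 ± 0.12, each in 24 of 24 birds. The share called in each of these lists was near the 62.6% called among all genes, so the numbers called are not read as a trait of the lists.

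Genes in the marker lists of other cell types were called in both directions between striatum and hippocampus. The counts stand beside the 62.6% of all genes called, 29.5% higher and 33.1% lower, and are not read as shifts of cell types. Vascular endothelium markers summed to 116 to 238 CPM in striatum (median 178), 96.7 to 167 CPM in caudal hippocampus (median 122.5) and 122 to 205 CPM in rostral hippocampus (median 148), with 4 of 11 tested higher and 1 lower in striatum. Pericyte and smooth muscle markers summed to 35.85 to 130.0 CPM in striatum (median 69.9), 37.7 to 143 CPM in caudal hippocampus (median 74.9) and 32.75 to 150 CPM in rostral hippocampus (median 65.0), with 0 of 8 tested higher and 3 lower. Markers of meningeal and perivascular fibroblasts summed to 45.3 to 153 CPM in striatum (median 71.96), 36.7 to 181 CPM in caudal hippocampus (median 88.6) and 33.1 to 198 CPM in rostral hippocampus (median 83.1). Of 9 tested, 1 was higher and 5 were lower in striatum. Of this list, 3 genes (DCN, LUM and OGN) also stand in the list of other matrix proteins. ALDH1A1, CRABP2 and NGFR of this list had no count in striatum, but CRABP2 had none in either hippocampal part and ALDH1A1 none in the caudal part. FOXC2, a transcription factor of meningeal fibroblasts, had a log2 fold of -1.99 ± 0.44. FOXC1 of the same list averaged 3.61 CPM in striatum, 4.37 CPM in caudal and 4.57 CPM in rostral hippocampus, and TBX18 averaged 0.559, 0.517 and 0.738 CPM in that order. Astrocyte markers summed to 2620 to 3826 CPM in striatum (median 3262), 2887 to 4606 CPM in caudal hippocampus (median 3717) and 3611 to 6219 CPM in rostral hippocampus (median 4728). Of these, 6 of 8 tested were lower in striatum. Erythrocyte markers summed to 5.89 to 35.7 CPM in striatum (median 18.6), 18.5 to 72.3 CPM in caudal hippocampus (median 43.3) and 14.8 to 76.5 CPM in rostral hippocampus (median 35.5), with 0 of 5 tested higher and 4 lower. Choroid plexus and ependyma markers had 0 of 8 tested higher and 4 lower, with a summed median of 160.5 CPM in striatum, 249 CPM in caudal and 211 CPM in rostral hippocampus. Markers of cartilage and bone had 1 of 5 higher and 3 lower, and those of microglia and leukocytes 0 of 4 higher and 1 lower. Oligodendrocyte markers went the other way, with 3 of 5 higher and 1 lower, and summed to medians of 594 CPM in striatum, 266 CPM in caudal and 251 CPM in rostral hippocampus. The part of these cells in the differences of the matrix genes was not tested.

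Within the hippocampus, the caudal part had more of FBN1, of the cartilage collagen COL2A1 and of several other collagens, and less of the integrin ITGA6. Basement membrane genes went both ways, with COL4A5, COL4A6 and LAMA2 higher and COL4A2 and NID1 lower in the caudal part. Of the 51 genes tested, 12 were higher and 5 were lower in caudal than in rostral hippocampus (adjusted p under 0.05). That is 33.3%, below the 45.6% of all genes called, of which 2412 (23.1%) were higher and 2353 (22.5%) lower. The median log2 fold was 0.24 over the 51 genes and 0.02 over all genes. Changes of at least 1 on the log2 scale were found for 3 of the 51, or 5.88%, against 4.19% of all genes. Without bird 260, 8 genes were higher and 5 lower, and the calls of COL22A1, COL8A2, ITGB4 and LAMA2 were lost.

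FBN1 had the smallest p. It ranged from 115 to 339 CPM in caudal hippocampus (median 215) and from 60.3 to 167 CPM in rostral hippocampus (median 123). The ranges overlapped, but 22 of 24 birds had more in the caudal part, at 218.5 ± 72.1 CPM against 119.5 ± 32.6 CPM in the rostral part (log2 fold 0.86 ± 0.11, adjusted p = 6.73e-09). Striatum lay between them, at 172 ± 38.9 CPM. COL2A1 showed the highest fold. It ranged from 0 to 8.35 CPM in caudal hippocampus (median 3.32) and from 0 to 8.70 CPM in rostral hippocampus (median 0.244), where 8 libraries had no count. The rostral median lay near 0 although the highest rostral library stood above the highest caudal one, and 22 of 24 birds had more in the caudal part (log2 fold 2.49 ± 0.41, adjusted p = 2.15e-06). Among other fibrillar collagens, COL27A1 was higher by 0.57 ± 0.14 (adjusted p = 0.000992, 20 of 24 birds) and COL11A1 by 0.52 ± 0.17 (adjusted p = 0.0109). COL1A2 (0.37 ± 0.21), COL3A1 (0.27 ± 0.36) and COL5A2 (-0.20 ± 0.14) were not called. COL26A1, a collagen first described in reproductive tissue of the mouse, was higher by 1.12 ± 0.34 (adjusted p = 0.00541), and COL22A1, a collagen of tissue junctions, by 0.60 ± 0.25 (adjusted p = 0.0463). COL25A1 was lower in the caudal part, at 13.85 ± 4.56 CPM against 23.0 ± 9.40 CPM (log2 fold -0.70 ± 0.17, adjusted p = 0.000729, 20 of 24 birds).

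The 2 main type IV collagen genes did not move together. COL4A2 averaged 9.74 ± 4.32 CPM in caudal and 15.9 ± 10.4 CPM in rostral hippocampus, a log2 fold of -0.61 ± 0.22 (adjusted p = 0.0195, 18 of 24 birds). COL4A1 averaged 49.8 ± 23.1 CPM in caudal and 42.5 ± 30.0 CPM in rostral hippocampus, with a log2 fold of 0.36 ± 0.22 that was not called (adjusted p = 0.196). This fold is over both sexes. The male minus female difference of COL4A1 was lower in the caudal part, by -1.41 (edgeR adjusted p = 0.0415, or 0.079 without bird 260). In the table's genome the starts of COL4A1 and COL4A2 face each other 23 bases apart, an arrangement in which both are known in mammals to be read from a shared promoter. The log2 ratio of COL4A1 to COL4A2 was 2.27 in caudal and 1.26 in rostral hippocampus, a difference of 1.01 ± 1.04 (SD) that was positive in 21 of 24 birds (adjusted p = 0.000524). Between striatum and hippocampus it differed by 0.25 ± 1.26 (adjusted p = 0.409). COL4A5 and COL4A6, another pair with facing starts, 442 bases apart, were both higher in the caudal part, COL4A5 by 0.65 ± 0.19 (adjusted p = 0.00507) and COL4A6 by 0.66 ± 0.22 (adjusted p = 0.0139). Their log2 ratio differed by -0.04 ± 0.72 between the hippocampal parts (adjusted p = 0.813). These folds too are over both sexes. For COL4A5 the male minus female difference was lower in the caudal part by -1.15, not called by edgeR (adjusted p = 0.0662, or 0.115 without bird 260). The DESeq2 Wald test did call it (adjusted p = 0.0228). COL8A2 was higher in the caudal part by 0.42 ± 0.17 (adjusted p = 0.0332).

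Of the 8 laminin chains only LAMA2 was called, at 15.6 ± 4.74 CPM in caudal and 11.65 ± 5.29 CPM in rostral hippocampus (log2 fold 0.49 ± 0.20, adjusted p = 0.0355). LAMB1 (-0.04 ± 0.22) and LAMC1 (-0.02 ± 0.10) were not called, and the ratio of LAMA2 to LAMC1 was higher in the caudal part by 0.52 ± 0.62 (20 of 24 birds, adjusted p = 0.00096). NID1, the nidogen that links laminin to type IV collagen, was lower in the caudal part, at 6.00 ± 3.06 CPM against 9.20 ± 3.90 CPM (log2 fold -0.65 ± 0.21, adjusted p = 0.00846, 20 of 24 birds). NID2 (-0.08 ± 0.49) was not called.

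Among the integrins 1 was higher and 2 were lower in the caudal part. ITGA6 ranged from 8.79 to 40.9 CPM in caudal hippocampus (median 16.3) and from 7.89 to 62.5 CPM in rostral hippocampus (median 26.9). The ranges overlapped widely, and 20 of 24 birds had less in the caudal part (log2 fold -0.69 ± 0.16, adjusted p = 0.000304). ITGB8 averaged 46.4 ± 13.0 CPM in caudal and 59.3 ± 17.6 CPM in rostral hippocampus (log2 fold -0.34 ± 0.09, adjusted p = 0.00256). ITGB4, the beta partner of ITGA6 in epithelial anchoring junctions, was higher by 1.09 ± 0.44 (adjusted p = 0.0395), at 2.36 ± 1.39 CPM against 1.10 ± 0.927 CPM, a call lost under 4 of 9 alternatives. ITGB1 (-0.08 ± 0.08), ITGAV (-0.17 ± 0.13), ITGA8 (0.12 ± 0.38), ITGA9 (-0.06 ± 0.19) and ITGA4 (0.03 ± 0.24) were not called. ITGB1BP1, a cytoplasmic protein that binds the ITGB1 tail, was higher in the caudal part by 0.35 ± 0.09 (adjusted p = 0.000746). It was also higher in striatum than in hippocampus, by 0.49 ± 0.07.

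The companion lists are read against the 45.6% of all genes called between the hippocampal parts. Of 36 tested adhesion receptors and adaptors, 6 were higher and 11 were lower in caudal hippocampus, a share near that background, and in the other 3 lists the share called was below it. PARVB, a parvin that links integrins to actin, averaged 20.4 ± 10.55 CPM in caudal and 45.7 ± 17.0 CPM in rostral hippocampus (log2 fold -1.18 ± 0.17, adjusted p = 1.47e-07, 23 of 24 birds). LIMS2, which works in the same complex, was lower by -1.05 ± 0.15 and LIMS1 by -0.43 ± 0.09. PTK2, the focal adhesion kinase, was higher, at 283 ± 48.7 CPM against 189.7 ± 45.1 CPM (log2 fold 0.59 ± 0.08, adjusted p = 9.13e-08), and so was CD47 (0.53 ± 0.06, 24 of 24 birds). Of 37 other matrix genes, 3 were higher and 5 were lower. FRAS1, a basement membrane protein, was higher by 0.69 ± 0.20 and THBS2, a thrombospondin, lower by -1.03 ± 0.30. Of 26 collagen processing genes, 5 were higher and 2 lower, among them TLL1, a tolloid-like procollagen protease, by 0.91 ± 0.16 (adjusted p = 4.47e-06, 23 of 24 birds). Of 17 proteases and inhibitors, 2 were higher and 3 lower. TIMP2 was lower by -0.49 ± 0.09 and ADAMTS9 higher by 0.78 ± 0.18.

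Most tested markers of choroid plexus and ependyma were higher in the caudal part, but the order of the summed medians differed by sex. These medians were 841.7 CPM in caudal and 204 CPM in rostral hippocampus of males, and 209 CPM in caudal and 234 CPM in rostral hippocampus of females. Over both sexes the markers summed to 109 to 2837 CPM in caudal hippocampus (median 249) and to 115 to 323 CPM in rostral hippocampus (median 211). Of 8 tested, 5 were higher and 1 was lower. TTR, which the choroid plexus secretes, had a log2 fold of 8.57 ± 0.61. Its caudal libraries were spread widely, from 1.14 to 2551 CPM (median 46.5, mean 547), against 0 to 8.44 CPM in rostral hippocampus (median 0.312). CLIC6 of this list had no count in either part. Markers of cartilage and bone, the tissue best known for COL2A1, summed to 62.05 to 140.9 CPM in caudal hippocampus (median 91.7) and to 61.4 to 132.6 CPM in rostral hippocampus (median 82.5). This list named 15 genes, 12 of them in the table, and its ACAN and MATN3 also stand in the list of other matrix proteins. The sum is not read as a sign of these tissues. Of 5 tested 1 was higher and 0 were lower, and SP7 and SPP1, markers of bone-forming cells, had no count in either part. Endothelial markers were lower or not called, with 0 of 11 higher and 3 lower, including CLDN5, a tight junction protein of brain endothelium (-0.88 ± 0.19). Of 8 pericyte and smooth muscle markers, 2 were higher and 1 lower, and of 9 fibroblast markers, 2 were higher and 1 lower. Astrocyte markers summed to 2887 to 4606 CPM in caudal hippocampus (median 3717) and to 3611 to 6219 CPM in rostral hippocampus (median 4728), with 1 of 8 tested higher and 5 lower. Of 5 oligodendrocyte markers 0 were higher and 1 was lower, and none of 5 erythrocyte and 4 microglia and leukocyte markers was called by edgeR. The counts of called markers stand beside the 45.6% of all genes called, 23.1% higher and 22.5% lower, and are not read as shifts of cell types. The part of these cells in the differences between the hippocampal parts was not tested.

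Few of these genes were called between males and females. In caudal hippocampus 0 of 37 tested genes were called, against 2.69% of all genes and 0.497% of genes outside the Z and W sequences. At an unadjusted p under 0.05 there were 3, and limma voom and DESeq2 each called 0. In striatum 0 of 32 were called, against 1.69% of all genes and 0.0479% outside the sex chromosomes. At an unadjusted p under 0.05 there were 2, and limma voom and DESeq2 again called 0 each. The shares of all genes at an unadjusted p under 0.05 are not given, so these counts are not read further. Without bird 260 edgeR called 0 in both of these regions.

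In rostral hippocampus 2 of 36 tested genes were higher in males and 0 were lower, which is 5.56%, against 5.29% of all genes and 3.05% outside the Z and W sequences, so the share was near the background. COL5A1 ranged from 1.53 to 22.0 CPM in males (median 7.29) and from 0.710 to 10.2 CPM in females (median 1.49). The ranges overlapped, and the male median lay above every female library but that of bird 22. The means were 9.70 ± 6.16 CPM in 13 males and 2.80 ± 2.95 CPM in 11 females, with a log2 fold of 1.79 ± 0.42 (edgeR adjusted p = 0.00982). Without bird 260 the log2 fold was 1.71 (adjusted p = 0.0134), over 5 other settings the adjusted p was 0.000485 to 0.0192, and the call held without each of the 24 birds in turn. COL4A5 ranged from 10.9 to 42.55 CPM in males (median 20.1) and from 4.48 to 23.6 CPM in females (median 8.60). Its log2 fold was 0.90 ± 0.26 (adjusted p = 0.035). Without bird 260 it was 0.87 (adjusted p = 0.047), and over 5 other settings the adjusted p was 0.0106 to 0.041. The call of COL4A5 held in 13 of 24 runs that left out 1 bird, and was lost without any of birds 3, 4, 6, 7, 9, 10, 14, 18, 19, 20 and 262.

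The rostral libraries high in COL4A5 were compared for 10 genes picked after their values had been seen. The 8 libraries with most COL4A1 came from 7 males and 1 female, bird 22, and the same 8 libraries had most COL4A5 and most COL6A3. Of these 8, 7 were among the 8 with most COL4A2, COL4A6, LAMA2, ITGA4 or ITGA6 in each case, 6 among those with most COL5A1, and 4 among those with most LAMA5. Bird 22 was the highest of the libraries labelled female for 9 of these 10 genes, with 70.7 CPM of COL4A1, where the next female had 42.25 CPM. It had 35.2 CPM of COL6A3, where the next was bird 260, with 15.6 CPM. Bird 260, whose counts go against its female label, was also the next for ITGA4. Without bird 22, 8 genes were called higher in males: COL4A1 (log2 fold 1.34), COL4A2 (0.90), COL4A5 (1.08), COL4A6 (1.25), COL5A1 (2.21), COL6A3 (1.63), ITGA4 (1.46) and ITGA6 (0.86). For each of these genes bird 22 was the highest library labelled female. Leaving out such a library raises the male minus female difference of the gene, so the direction of this shift was fixed beforehand. The share of all genes called without bird 22 is not given, so these calls are not read further. With all birds edgeR did not call COL4A1 (1.08 ± 0.34, adjusted p = 0.0576), whereas the DESeq2 Wald test did (adjusted p = 0.0453; the 5 other settings gave 0.0311 to 0.0894). DESeq2 called 3 genes in rostral hippocampus and limma voom 2. Not called by edgeR were also LAMA5 (0.97 ± 0.33, adjusted p = 0.079) and COL4A6 (0.97 ± 0.35, adjusted p = 0.0978). The count called ranged from 1 to 8 over the runs that left out 1 bird. It was 4 without bird 11 or bird 261, and 1 without any of birds 3, 4, 7, 9, 10, 14, 18, 19, 20 and 262.

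**Figure D4:**
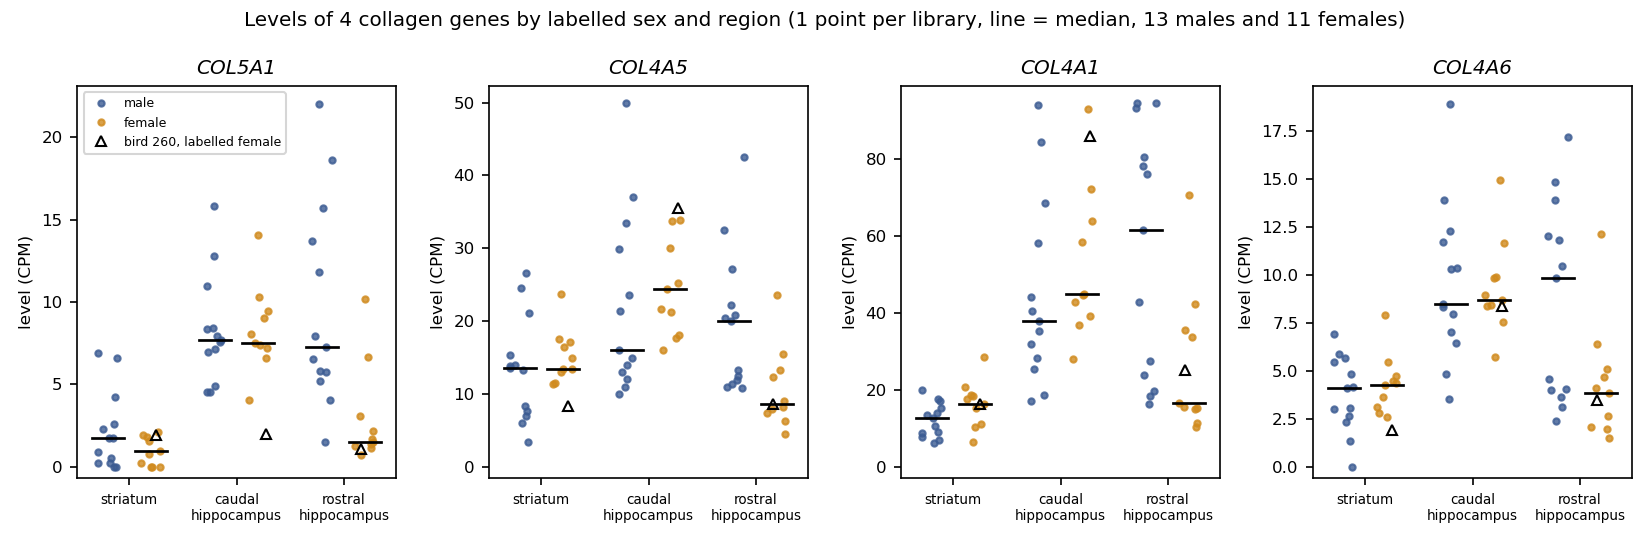
Level of COL5A1, COL4A5, COL4A1 and COL4A6 in CPM (vertical axes starting at 0) in males (left of each pair) and females (right) of each region; points are libraries, lines are medians of 13 males and 11 females, and triangles mark bird 260, which is labelled female. In rostral hippocampus the medians of COL4A1 are 61.5 CPM in males and 16.6 CPM in females, and in caudal hippocampus 37.9 CPM in males and 44.8 CPM in females.

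Markers of cells that make basement membranes were compared between the sexes in rostral hippocampus. Endothelial markers summed to 122 to 181 CPM in males (median 147) and 129 to 205 CPM in females (median 156), and 0 of 8 tested were called. Pericyte and smooth muscle markers summed to 32.75 to 132 CPM in males (median 52.7) and 41.1 to 150 CPM in females (median 73.8), with 0 of 7 called. Fibroblast markers summed to 33.1 to 155 CPM in males (median 63.1) and 61.7 to 198 CPM in females (median 95.0), with 0 of 6 higher and 1 lower. Astrocyte markers summed to 3611 to 6219 CPM in males (median 4755.4) and 3892 to 5032 CPM in females (median 4623.5), with 1 of 7 higher and 0 lower. These counts stand beside the 5.29% called among all genes. At that share such short lists would hold few or no calls, so the counts are not read further. The part of these cells in the sex difference was not tested.

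Whether the sex difference itself differed between the hippocampal parts was tested as an interaction within birds. Of the 51 genes 1 was called, against 2.3% of all genes. COL4A1 had an interaction of -1.41 ± 0.39 on the log2 scale (adjusted p = 0.0415), meaning that the male minus female difference was lower in caudal than in rostral hippocampus. In caudal hippocampus it ranged from 17.3 to 94.2 CPM in males (median 37.9) and from 28.2 to 92.95 CPM in females (median 44.8). In rostral hippocampus it ranged from 16.5 to 94.6 CPM in males (median 61.5) and from 10.3 to 70.7 CPM in females (median 16.6). Males and females overlapped in both parts. Without bird 260 the interaction was -1.34 and no longer called (adjusted p = 0.079, against 0.015 to 0.0416 under 5 other settings), so 0 genes were called. With all birds 11 genes had an unadjusted p under 0.05. Counts at that level have no share of all genes beside them here and are not read further. Choroid plexus and ependyma markers summed to medians of 841.7 CPM in males and 209 CPM in females in caudal hippocampus, and of 204 CPM in males and 234 CPM in females in rostral hippocampus. The highest caudal sum was 2837 CPM, and TTR alone reached 2551 CPM there, against at most 18.4 CPM for OTX2 and 3.54 CPM for KCNJ13. The part of these markers in the interaction was not tested. For the interaction of sex with striatum against hippocampus 0 of 51 genes and 0% of all genes were called by edgeR, with 1 gene at an unadjusted p under 0.05, and limma voom and DESeq2 called 0 each.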

How the data were processed

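Per the labels' protocols, a kit for lipid-rich tissue was used for RNA extraction and a company made the libraries. Per the submitters' processing notes the tools were HISAT2 and StringTie, without versions. Genome build, annotation and strand setting: not given in the sources used here. What the authors deposited is a single matrix of raw read counts, whole numbers by gene and library. Of the 73 symbols, 69 were found in the reference gene table of the species, but 0 of the gene identifiers, and 34 descriptions in the matrix mention Taeniopygia guttata. Overlapping genes cannot be told apart without strand, and no sequences are printed.

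Genes were tested with edgeR 4.0.16 in R 4.3.3 (quasi-likelihood test, TMM scaling, Benjamini-Hochberg over all genes tested, threshold 0.05). Low counts were removed by filterByExpr (count minimum 10, total minimum 15). Region comparisons and interactions used all 72 libraries with bird as a block; the sexes, as labelled, were compared within each region with 1 library per bird. Pairing rests on the labels, which number the birds. Deviations from region means were correlated between libraries of the same bird. The median r was 0.214 for caudal with rostral, 0.183 for caudal with striatum and 0.201 for rostral with striatum. The lowest r of a bird was -0.0736, 0.0546 and 0.1, and different birds gave medians of -0.0266, -0.0105 and -0.0127 in that order. Sex was not taken out of these deviations, so differences shared by birds of a sex are part of these values. Levels are CPM from TMM-scaled totals. Ratios of gene pairs were tested with SciPy 1.17.1. The tests were checked on simulated counts. Region and sex tests recovered 81.4 to 88.4% of log2 changes of 1 and 41.8 to 68.4% of changes of 0.5, so small differences by sex can be missed. Interaction tests recovered less, with 59.8% and 63.5% of changes of 1 and 23% and 31% of changes of 0.5 (hippocampal part, then striatum). False calls were 1.42 to 8% of those called, with 8% in the interaction with striatum and 5.98% for sex in caudal hippocampus. Simulated libraries of a bird shared no bird effect, unlike the real ones. The simulated spread was what remained after the bird block, so it left out variation between birds. Recovery by the sex tests can therefore be lower in the real data. The percentages cover only changed genes that passed the filter on low counts. Alternatives were DESeq2 1.42.0 (its size factors in edgeR, and its Wald test), limma voom 3.58.1, no filter, no block, hippocampal libraries alone, and leaving out bird 260, 11 or 6.

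The genes, the marker and companion lists and the naming rule were chosen with earlier results of these data known. The rule names, per region comparison, up to 12 called genes in each direction with the largest change and a mean of at least 1 CPM, then genes called by sex, up to 3 per direction of each companion list, and a list of well-known members. Other genes named, the ratios, and leaving out bird 6 or each bird in rostral hippocampus were chosen after values had been seen.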

Additional observations from a re-analysis of the deposited data

Results flagged for a closer look

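The interaction of sex with hippocampal part for COL4A1 (-1.41 on the log2 scale) drew attention because the difference between males and females differed between the parts by a test of that difference. Without bird 260, whose counts go against its female label, it was -1.34 and not called (edgeR adjusted p = 0.079). With that bird kept as labelled, males had a higher median than females in rostral hippocampus (61.5 CPM in males, 16.6 CPM in females). In caudal hippocampus males had a lower one (37.9 CPM in males, 44.8 CPM in females). COL4A2, whose start faces that of COL4A1, was not called between the sexes in either part with all birds.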

How the results depend on the processing

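In the region comparisons no alternative moved the number of genes called by over 1.5 times. It was 35 to 38 for striatum against hippocampus, where 36 were called, and 13 to 19 for caudal against rostral hippocampus, where 17 were called. Without the replicate block, which pairs the libraries of a bird, 37 and 15 genes were called, and 36 and 15 of these were among those called with it. No call changed direction. Calls lost under at least 1 alternative were COL4A5, COL14A1 and ITGB1 for striatum, and COL22A1, COL8A2, ITGB4 and LAMA2 for caudal against rostral hippocampus. By sex, rostral hippocampus had 2 genes called, 4 without bird 11 and 1 to 8 when each bird was left out. The interaction of sex with hippocampal part had 1 gene called, 3 with limma voom, 2 with DESeq2, 4 without bird 11 and 0 without bird 260. Over all genes, this interaction had 240 called, 406 without bird 11 and 452 with DESeq2, and the sex comparison in striatum had 148 called and 226 without bird 260. Of the recomputed ratios of gene pairs (1 CPM added, or without bird 260, 11 or 6), 93 kept their side of the threshold. The exceptions, in caudal against rostral hippocampus, were COL5A2 to COL1A2 (-0.42 without bird 260 and -0.49 without bird 11, both lost) and COL6A3 to COL6A2 (0.79 without bird 260, gained). The cause of these shifts was not tested. At these depths a gene with 4 counts in a region, such as ITGA4 in striatum, gives no precise fold.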
